A study of Caenorhabditis elegans with 6 samples.

Results

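The *flp* and *nlp* genes of *Caenorhabditis elegans* encode the precursors of its neuropeptides. They were followed here as all genes whose current symbol starts with *flp-* or *nlp-*, apart from *nlp-24* to *nlp-34*, a stretch that holds antimicrobial peptide genes of the epidermis. The reference annotation holds 98 such symbols, and 88 of them, 30 *flp* and 58 *nlp* genes, had a probe on the array, out of 18877 genes with a probe in all. The rule used names only and no measured value.

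Neuropeptide precursors are cut by proprotein convertases, trimmed, often amidated at the carboxyl end, packed into dense-core vesicles and released to act mostly on G protein-coupled receptors. The *flp* genes encode peptides that end in an RFamide motif, and the *nlp* genes encode the other, more varied peptides. Most are made in neurons, and some also in the intestine or other tissues. They set behavioral states such as quiescence, feeding, egg laying and locomotion, and some act between neurons and the intestine in fat metabolism and defecation.

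RNA came from whole late L4 larvae of 2 deletion mutants of *ets-4*, which encodes an ETS family transcription factor, and of wild-type N2 Bristol worms. The *ets-4(uz1)* allele, from a library mutated with EMS, lacks most of the ETS DNA binding domain and keeps the PNT domain, and the *ets-4(ok165)* allele, from the knockout consortium, lacks the coding sequence of both domains. Both strains carry the deletion in all cells, both were outcrossed to N2, and both were described as developing more slowly than wild type, so that a difference in exact stage cannot be told apart from the genotype. Each of 6 two-color arrays held cDNA of mutant larvae labeled with Cy5 and of wild-type larvae labeled with Cy3, 3 arrays for *ets-4(uz1)* and 3 for *ets-4(ok165)*. No dye was swapped, so a gene's own dye bias cannot be told apart from a difference between mutant and wild type, whereas such a bias is shared by both strains in the difference between them.

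The probe for *ets-4* itself read, as log2 of mutant over wild type, −3.18, −3.08 and −2.84 on the *ets-4(uz1)* arrays and −3.59, −2.80 and −2.72 on the *ets-4(ok165)* arrays, with no check of whether the probe lies in the deleted sequence. Per array, 72.8% to 85.4% of the 21482 spots for worm genes exceeded background clearly in the mutant channel and 68.5% to 72.9% in the wild-type channel. All 10 pan-neuronal marker genes (among them *rab-3*, *snb-1* and *unc-64*) were measured above background. So were 4 of 4 body wall muscle, 3 of 3 pharynx, 4 of 4 epidermis and 4 of 4 germ line markers. Of 6 intestine markers only 5 had a probe, and all 5 were measured above background. The first array of each strain was read with an earlier version of the scanner software, and the first *ets-4(ok165)* array had the most spots flagged as outliers, 151 of the 3 to 151 per array.

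Of the 88 neuropeptide genes, 72 were well above background in both channels on all 6 arrays. A gene entered the tests when its probe was well above background in the mutant or the wild-type channel on 3 or more of the 6 arrays, which 81 neuropeptide genes did (28 *flp* and 53 *nlp* genes). Probes passed that filter for 14768 genes in all. Of the 7 left out, 5 (*flp-32*, *nlp-22*, *nlp-45*, *nlp-60* and *nlp-67*) were not well above background in any channel on any array. *nlp-39* reached that level only in the mutant channel of 1 *ets-4(uz1)* array, and *flp-23* only in the mutant channel of 2 *ets-4(ok165)* arrays. *nlp-22*, which encodes a quiescence-promoting peptide of the molt, therefore has no measured level in these larvae.

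In *ets-4(uz1)* larvae 2 of the 81 neuropeptide genes passed the test against wild type (2.47%, beside 3.53% of all genes tested). *nlp-69* fell and *nlp-4* rose, the first by 5.69-fold and the second by 3.91-fold. In *ets-4(ok165)* larvae 0 of the 81 passed, where only 0.0948% of all genes did. Neither precursor has a function that can be stated here with confidence.

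On the *ets-4(uz1)* arrays *nlp-69* had log2 ratios of −2.44, −2.95 and −2.14, and on the *ets-4(ok165)* arrays −0.27, −1.05 and 0.12. All 3 *ets-4(uz1)* values lay below all 3 *ets-4(ok165)* values. The mean was −2.51 ± 0.41 in *ets-4(uz1)* larvae (SD, n = 3), a 5.69-fold lower signal than in wild type (limma, adjusted p = 0.00669), and −0.40 ± 0.60 in *ets-4(ok165)* larvae (SD, n = 3, adjusted p = 0.73). On the *ets-4(uz1)* arrays its mutant signal cleared background on 2 of 3 and its wild-type signal on all 3. With normexp background correction and loess in place of the scanner software's ratios, the *ets-4(uz1)* mean was −0.91 (limma, adjusted p = 0.0621). The size of the drop thus depended on the processing, in which background correction and normalization were changed together. Without the first *ets-4(uz1)* array the mean was −2.55 (limma, adjusted p = 0.0578).

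*nlp-4* gave log2 ratios of 1.09, 1.90 and 2.92 on the *ets-4(uz1)* arrays, against −0.18, 1.20 and 0.05 on the *ets-4(ok165)* arrays. The groups overlapped, since the second *ets-4(ok165)* array lay above the first *ets-4(uz1)* array. It averaged 1.97 ± 0.92 in *ets-4(uz1)* larvae (SD, n = 3), 3.91-fold higher than wild type (limma, adjusted p = 0.0432), and 0.36 ± 0.74 in *ets-4(ok165)* larvae (SD, n = 3, adjusted p = 0.837). Its signal was well above background in both channels on all arrays. The call was lost without any 1 of the 3 *ets-4(uz1)* arrays (adjusted p = 0.0883, 0.166 and 0.13 without array 1, 2 and 3), without the first or the third *ets-4(ok165)* array (0.0502 and 0.0723), and with normexp and loess (mean 1.78, adjusted p = 0.0611).

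At an unadjusted p under 0.05, 8 neuropeptide genes (9.88%) differed from wild type in *ets-4(uz1)* larvae, beside 19.6% of all genes, and 2 (*nlp-40* and *nlp-90*, 2.47%) did in *ets-4(ok165)* larvae, beside 8.14%. A Rank Products test at the methods' limit called 3 of 88 in *ets-4(uz1)* larvae (*nlp-69*, *nlp-66* and *nlp-4*, 3.41%, beside 2.8% of all genes) and 0 in *ets-4(ok165)* larvae (beside 0.657%).

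Because arrays numbered alike in both strains shared part of their deviation from the strain means, a second fit took the array number as a block. Only the difference between the strains is a paired comparison in it. For a mean against wild type, the block leaves variation shared by same-numbered arrays out of the error. Its p-values against wild type therefore do not count that variation between repeats. For *nlp-66* in *ets-4(uz1)* larvae the SE was 0.289 without the block and 0.109 with it. With the block, 7 neuropeptide genes (8.64%) were called in *ets-4(uz1)* larvae, beside 15.5% of all genes, and 0 in *ets-4(ok165)* larvae, beside 0.332%. The 5 genes added were *nlp-66*, *nlp-90* and *flp-20*, which were lower in *ets-4(uz1)* larvae, and *flp-18* and *nlp-61*, which were higher.

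*nlp-66* had log2 ratios of −1.77, −1.60 and −0.54 in *ets-4(uz1)* larvae and −0.92, −0.79 and 0.03 in *ets-4(ok165)* larvae. In both strains the third array was the least changed. The mean of −1.30 ± 0.66 in *ets-4(uz1)* larvae (SD, n = 3), a 2.46-fold lower signal, had an adjusted p of 0.0596 in limma without the block and 0.00856 with it. With normexp and loess that mean was −0.54 (adjusted p = 0.102). With the scan date as a random block it was −1.37 (adjusted p = 0.0323). Its mean in *ets-4(ok165)* larvae was −0.56 ± 0.51 (SD, n = 3, adjusted p = 0.663).

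*flp-20*, a precursor made in the touch receptor neurons, gave −0.63, −0.95 and −0.49 in *ets-4(uz1)* larvae and 0.15, −0.52 and 0.11 in *ets-4(ok165)* larvae. The strains overlapped at the second *ets-4(ok165)* array. Its *ets-4(uz1)* mean was −0.69 ± 0.23 (SD, n = 3), with an adjusted p of 0.109 in limma without the block and 0.0244 with it.

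*flp-18*, which encodes ligands of the receptor NPR-1, gave 0.41, 0.55 and 0.71 in *ets-4(uz1)* larvae and 0.15, 0.51 and 0.22 in *ets-4(ok165)* larvae. All 6 arrays were above 0. The means were 0.56 ± 0.15 and 0.29 ± 0.19 in *ets-4(uz1)* and *ets-4(ok165)* larvae (SD, n = 3 each). In *ets-4(uz1)* larvae the adjusted p was 0.111 in limma without the block and 0.0407 with it.

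The other 2 genes added by the block were dim. *nlp-90* had −0.53, −1.36 and −0.59 in *ets-4(uz1)* larvae and −0.27, −1.23 and −1.42 in *ets-4(ok165)* larvae. In *ets-4(uz1)* larvae its mutant and wild-type signals were each well above background on 1 array only (adjusted p = 0.159 in limma, 0.0459 with the block). In *ets-4(ok165)* larvae its wild-type signal was so on 0 of 3 arrays, which gives no direction there, and with normexp and loess its means were −0.15 and −0.17 in *ets-4(uz1)* and *ets-4(ok165)* larvae. *nlp-61* had 1.15, 0.38 and 0.03 in *ets-4(uz1)* larvae and 0.70, 0.27 and 0.00 in *ets-4(ok165)* larvae, and its wild-type signal stayed near background on all 6 arrays. No fold is given for *nlp-61*, since the lower limit that the background sets on it was under 1.

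**Figure D1:**
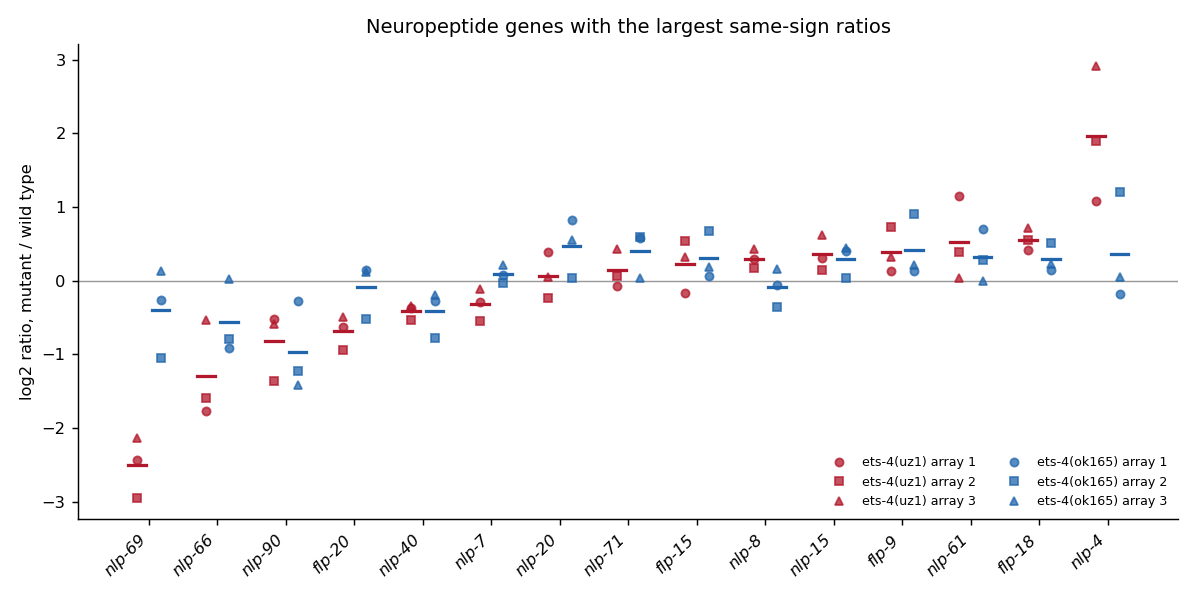
Log2 ratios of mutant over wild type (vertical axis) of the 15 neuropeptide genes that were called or had the largest means of 1 sign, with *ets-4(uz1)* arrays in red left of *ets-4(ok165)* arrays in blue, array number by symbol and the mean of 3 arrays as a bar. *nlp-69* (mean −2.51) and *nlp-4* (mean 1.97) in *ets-4(uz1)* larvae lie farthest from 0.

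The difference between the strains, *ets-4(uz1)* minus *ets-4(ok165)*, asks whether the alleles changed a gene to different extents. No neuropeptide gene was called in it (0 of 81, beside 0.163% of all genes), and 3 (*nlp-69*, *nlp-4* and *nlp-46*, 3.7%) had an unadjusted p under 0.05, beside 6.75% of all genes. With the block *nlp-69* was called (1 of 81, 1.23%, beside 0.623% of all genes). Its difference was −2.11 on the log2 scale (SE 0.37, adjusted p = 0.142 in limma without the block and 0.0293 with it). Taken between arrays of the same number, the difference was −2.17 for the first arrays, which shared a slide but not a scan date. It was −1.90 and −2.27 for arrays 2 and for arrays 3, each pair of which shared a scan date but not a slide. Arrays 2 and 3 of each strain lay on the same slide, so strain and slide cannot be told apart in those pairs. With the scan date as a random block the difference was −2.09 (adjusted p = 0.00244). With normexp and loess, without a block, it was −0.69 (adjusted p = 0.722). For *nlp-4* the same 3 differences were 1.27, 0.70 and 2.87, with a mean of 1.61 (SE 0.54, adjusted p = 0.609, or 0.192 with the block).

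The 3 values of one strain lay wholly apart from the 3 of the other for 3 neuropeptide genes (3.7% of 81), beside 10.7% of all genes with a value on every array. Besides *nlp-69* these were *nlp-7*, lower in *ets-4(uz1)* than in *ets-4(ok165)* larvae by a mean of 0.41 on the log2 scale, and *nlp-8*, higher by 0.38. Neither passed the test (adjusted p = 0.817 and 0.829, limma).

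The size of the ratios was small for most neuropeptide genes. In *ets-4(uz1)* larvae the mean log2 ratio was beyond 0.5 in either direction for 7 of the 81 (8.64%), beside 23.5% of all genes tested, and beyond 1 for 3 (3.7%), beside 6.06%. In *ets-4(ok165)* larvae it was beyond 0.5 for 3 (3.7%), beside 12.9%, and beyond 1 for 0, beside 2.14%. The spread over the 3 arrays was similar to that of other genes, with a median SD of 0.32 over the *ets-4(uz1)* arrays and 0.34 over the *ets-4(ok165)* arrays, beside 0.36 and 0.36 for all genes tested. These are descriptions of the genes that passed the signal filter and were not tested as a group.

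Means over 3 arrays hide a shift of the whole set from array to array. The median log2 ratio of the 81 genes was −0.24, −0.02 and 0.24 on *ets-4(uz1)* arrays 1, 2 and 3 and −0.02, 0.12 and 0.15 on the *ets-4(ok165)* arrays, while the median of all genes stayed between −0.04 and 0.05. On the first *ets-4(uz1)* array 58 of the 81 were below 0, and on the third 63 were above 0. On the third *ets-4(ok165)* array 65 were above 0. The pan-neuronal markers had medians of −0.13, 0.01 and 0.19 on the *ets-4(uz1)* arrays and 0.26, 0.26 and 0.13 on the *ets-4(ok165)* arrays, and in *ets-4(uz1)* larvae they were thus lowest on the first array and highest on the third, like the neuropeptide genes, but not in *ets-4(ok165)* larvae. The 3 pharynx markers had the same order and a wider range on the *ets-4(uz1)* arrays, with medians of −0.83, 0.10 and 0.73, and 0.83, 1.51 and 0.28 on the *ets-4(ok165)* arrays. The part of tissue content in the shift was not tested, and fewer neurons and less RNA per neuron cannot be told apart in whole worms.

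**Figure D2:**
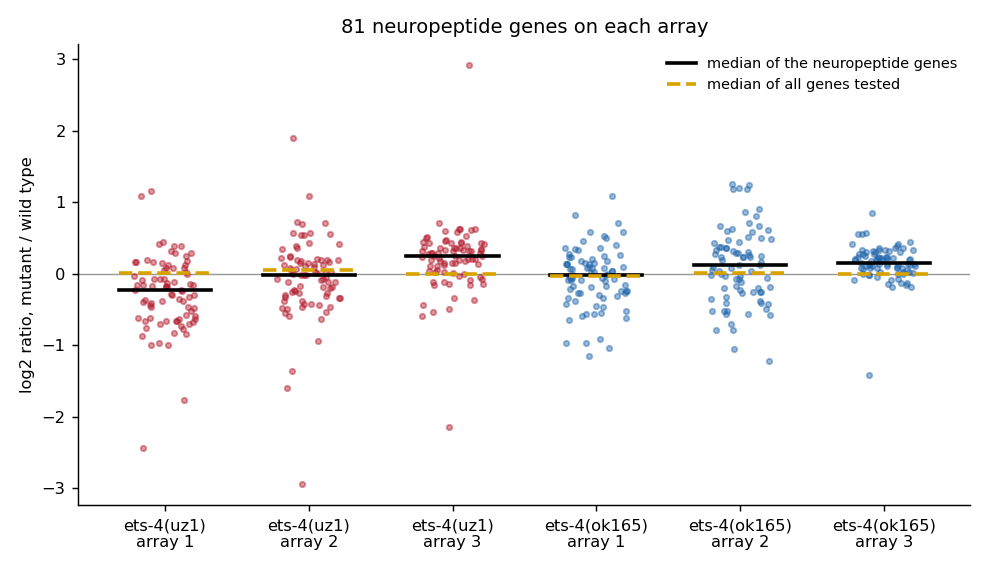
Log2 ratios of mutant over wild type (vertical axis) of the 81 neuropeptide genes tested, 1 point per gene, on each of the 3 *ets-4(uz1)* arrays (red) and 3 *ets-4(ok165)* arrays (blue), with black bars for their median and dashed bars for the median of all genes tested. The median of the neuropeptide genes was −0.24 on the first and 0.24 on the third *ets-4(uz1)* array.

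Both families showed that shift. The *flp* genes had medians of −0.30, −0.08 and 0.22 on the *ets-4(uz1)* arrays and 0.02, 0.25 and 0.16 on the *ets-4(ok165)* arrays. The *nlp* genes had −0.23, 0.02 and 0.27 on the *ets-4(uz1)* arrays and −0.05, 0.04 and 0.15 on the *ets-4(ok165)* arrays. Only *nlp* genes had means beyond 1, since the *flp* means ran from −0.69 to 0.56 in *ets-4(uz1)* larvae and from −0.28 to 0.42 in the other strain.

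The same sign on all 3 arrays was seen for 26 neuropeptide genes in *ets-4(uz1)* larvae (32.1%, 13 above and 13 below 0), beside 39.8% of all genes. In *ets-4(ok165)* larvae it was seen for 19 (23.5%, 16 above and 3 below 0), beside 29.9%. The largest of these in *ets-4(ok165)* larvae, leaving aside the dim *nlp-90*, were *nlp-20* (0.47 ± 0.40), *nlp-40* (−0.42 ± 0.32), *flp-9* (0.42 ± 0.43), *nlp-71* (0.40 ± 0.32), *flp-15* (0.31 ± 0.32), *flp-18* (0.29 ± 0.19) and *nlp-15* (0.29 ± 0.23; mean ± SD, n = 3). Their adjusted p-values ran from 0.60 to 0.73 in limma, and each mean was less than 2 SDs from 0.

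*nlp-40* encodes the peptide that the intestine releases to time the expulsion step of defecation, through the receptor AEX-2 on GABA neurons. It had log2 ratios of −0.37, −0.54 and −0.34 in *ets-4(uz1)* larvae and −0.27, −0.79 and −0.19 in *ets-4(ok165)* larvae. Every array was below 0, and the strain means were almost the same at −0.42 ± 0.11 and −0.42 ± 0.32 (SD, n = 3 each). The change from wild type did not pass the test in *ets-4(uz1)* (adjusted p = 0.236, or 0.0706 with the block) or *ets-4(ok165)* larvae (adjusted p = 0.60). Intestine markers had medians of −0.24, −0.96 and −0.08 on the *ets-4(uz1)* arrays and 0.42, −0.45 and 0.27 on the *ets-4(ok165)* arrays, lowest in each strain on the second array, as *nlp-40* was.

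*flp-7* encodes a signal that runs the other way, from sensory neurons to the intestine, where it promotes fat loss. Its log2 ratios were 0.03, −0.49 and −0.16 in *ets-4(uz1)* larvae and 0.50, −0.56 and 0.27 in *ets-4(ok165)* larvae. They crossed 0 in both strains, with means of −0.21 ± 0.26 and 0.07 ± 0.56 (SD, n = 3 each).

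Among the 5 tested precursors of peptides that promote sleep-like quiescence, none was called in any comparison, beside 3.53% of all genes in *ets-4(uz1)* larvae. *flp-11*, made in the sleep neuron RIS, had −0.23, −0.12 and 0.43 in *ets-4(uz1)* larvae and 0.00, 0.36 and 0.30 in *ets-4(ok165)* larvae, as read by the brightest of its 3 probes. The other probes of *flp-11* gave *ets-4(uz1)* means of 0.22 and 0.01 and *ets-4(ok165)* means of 0.26 and 0.11, against 0.03 and 0.22 for the brightest. *flp-13*, *flp-24* and *nlp-8*, which act from the ALA neuron in stress-induced sleep, averaged 0.06 ± 0.24, 0.10 ± 0.12 and 0.30 ± 0.13 in *ets-4(uz1)* larvae and 0.27 ± 0.47, 0.09 ± 0.17 and −0.09 ± 0.25 in *ets-4(ok165)* larvae (SD, n = 3 each). *nlp-14*, another of the stress-induced sleep genes, was above 0 on all 6 arrays, with means of 0.31 ± 0.28 and 0.23 ± 0.10 in *ets-4(uz1)* and *ets-4(ok165)* larvae (SD, n = 3 each, adjusted p = 0.349 and 0.747 in limma).

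Of the NPR-1 ligand genes, which act in aggregation and feeding on food, *flp-18* is given above. *flp-21* had −0.73, −0.43 and 0.24 in *ets-4(uz1)* larvae and −0.97, −0.22 and 0.34 in *ets-4(ok165)* larvae. In each strain the first array was the lowest and the third was above 0, and the means of −0.30 ± 0.50 and −0.28 ± 0.65 did not pass the test (SD, n = 3 each, adjusted p = 0.587 and 0.823 in limma).

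The 4 genes grouped under locomotion and posture were not called either, beside 3.53% of all genes in *ets-4(uz1)* larvae. *flp-1*, made in the AVK neurons, had −0.19, 0.57 and 0.62 in *ets-4(uz1)* larvae and −0.34, 1.25 and 0.11 in *ets-4(ok165)* larvae. The first array was the lowest in both strains, and the means were 0.33 ± 0.46 and 0.34 ± 0.82 (SD, n = 3 each). *flp-9* was above 0 on all 6 arrays, with means of 0.39 ± 0.31 and 0.42 ± 0.43. *nlp-9* averaged 0.19 ± 0.22 and 0.12 ± 0.05, and *nlp-12*, a cholecystokinin-like precursor of the stretch-sensitive DVA neuron, 0.19 ± 0.38 and 0.02 ± 0.35, in *ets-4(uz1)* and *ets-4(ok165)* larvae in each case (SD, n = 3 each).

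In the egg-laying circuit, *flp-10* and *flp-17* encode ligands of the inhibitory receptor EGL-6. *flp-10* averaged 0.07 ± 0.13 in *ets-4(uz1)* larvae, against 0.14 ± 0.14 in *ets-4(ok165)* larvae. *flp-17* averaged −0.25 ± 0.56 and 0.23 ± 0.38, its lowest value being −0.88 on the first *ets-4(uz1)* array. *nlp-3*, a precursor of the egg-laying motor neurons, averaged 0.19 ± 0.14 and 0.16 ± 0.27 in *ets-4(uz1)* and *ets-4(ok165)* larvae. *nlp-7* had −0.29, −0.55 and −0.12 in *ets-4(uz1)* larvae and 0.08, −0.03 and 0.21 in *ets-4(ok165)* larvae (SDs and values over 3 arrays each). None of these 4 genes passed the test in any comparison, beside 3.53% of all genes in *ets-4(uz1)* larvae.

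**Figure D3:**
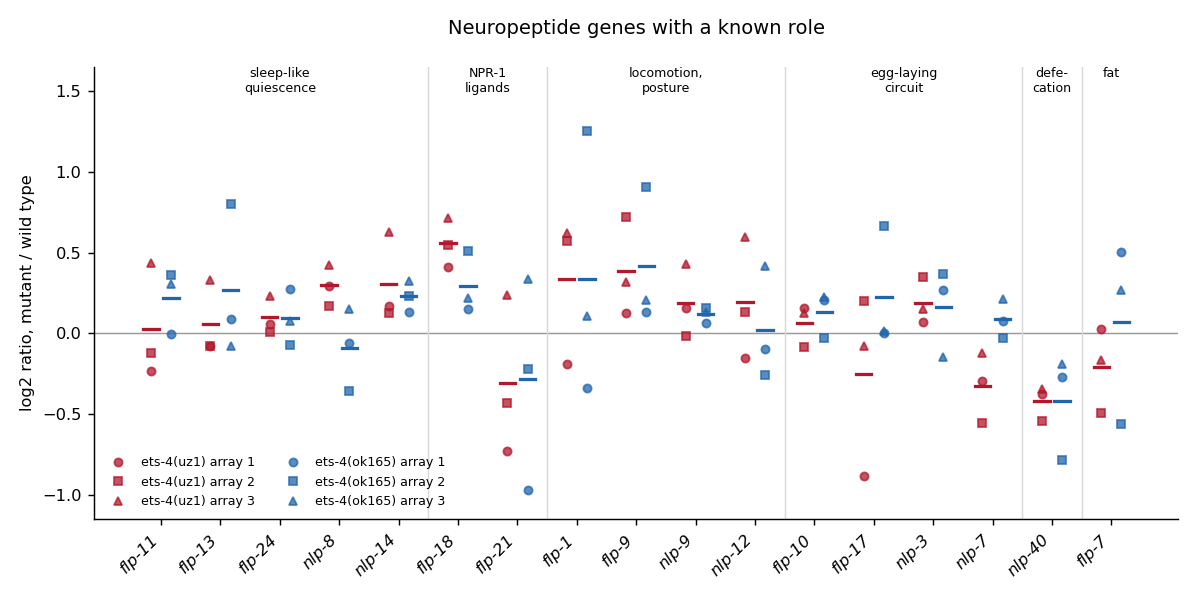
Log2 ratios of mutant over wild type (vertical axis) of the 17 neuropeptide genes grouped by a known role, with *ets-4(uz1)* arrays in red left of *ets-4(ok165)* arrays in blue, array number by symbol and the mean of 3 arrays as a bar. *nlp-40* was below 0 and *flp-18*, *nlp-14* and *flp-9* were above 0 on all 6 arrays.

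The other 54 neuropeptide genes tested had means between −0.40 and 0.41 in *ets-4(uz1)* larvae and between −0.22 and 0.56 in *ets-4(ok165)* larvae. Their smallest adjusted p was 0.246 in *ets-4(uz1)* larvae, 0.614 in *ets-4(ok165)* larvae and 0.654 in the difference. Several had a wild-type signal below the detection limit in a whole strain. For those the background allowed only lower limits on the mean of the 3 arrays in *ets-4(ok165)* larvae, and none in *ets-4(uz1)* larvae. They were 1.17-fold higher for *nlp-46* and 1.05-fold for *nlp-91*. For *nlp-48* the figure of 1.09-fold was its measured mean itself, so background set no separate limit there. Single arrays did not all go that way. The log2 ratios were 1.09, 0.58 and −0.0004 for *nlp-46*, 0.35, 0.08 and −0.05 for *nlp-48*, and −0.02, 1.24 and −0.08 for *nlp-91*. None of these 3 genes passed the test (adjusted p = 0.614, 0.86 and 0.806 in limma). *flp-23*, which did not enter the tests, had such a limit of 1.32-fold higher in *ets-4(ok165)* larvae and was named after its values were seen. Its log2 ratios there were 0.75, 2.57 and 0.00.

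Some neuropeptide genes lie side by side among the protein-coding genes of the reference annotation (WBcel235): *nlp-9* and *nlp-13*, *nlp-90* and *nlp-91*, *nlp-45*, *nlp-22*, *nlp-23* and *nlp-2*, and *flp-28*, *flp-3* and *flp-2*. In the last set the middle gene, *flp-3*, averaged 0.17 in *ets-4(uz1)* larvae, whereas *flp-28* and *flp-2* averaged −0.22 and −0.27. The 3 tested neighbors of the genes called in *ets-4(uz1)* larvae did not pass the test. Next to *nlp-69*, *sec-23* had −0.26, −0.11 and 0.01 and *ncx-1* had −0.27, 0.36 and 0.09 on the *ets-4(uz1)* arrays (adjusted p = 0.671 and 0.882, limma). Next to *nlp-4*, *exos-3* had 0.23, 0.39 and −0.59 (adjusted p = 0.982).

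The rest of the neuropeptide pathway was examined through lists of genes picked for their role. The 11 processing genes include the convertase gene *egl-3*, the carboxypeptidase gene *egl-21* and the amidation enzymes. All 11 were tested and none was called in any of the 3 comparisons. Of all genes, 3.53% were called in *ets-4(uz1)* larvae, 0.0948% in *ets-4(ok165)* larvae and 0.163% in the difference. At those shares a list this short can easily hold no call. With the block 2 of the 11 were called in *ets-4(uz1)* larvae (18.2%, beside the 15.5% of all genes), both higher. They were *pamn-1*, an amidating enzyme (mean 0.90, adjusted p = 0.0182), and *bli-4*, a convertase (mean 0.58, adjusted p = 0.0312). Tissue markers were also called in *ets-4(uz1)* larvae, in both directions. *dpy-7*, an epidermal collagen, was higher without the block (mean 1.63, adjusted p = 0.032). With the block the muscle genes *unc-15* and *myo-3* were higher (means 0.63 and 0.72, adjusted p = 0.0274 and 0.0208). So were the germ line marker *pgl-1* (mean 0.72, adjusted p = 0.0445) and the pan-neuronal marker *snb-1* (mean 0.59, adjusted p = 0.0344). The intestine marker *elt-7* (mean −0.81, adjusted p = 0.0205) and the germ line marker *gld-1* (mean −0.64, adjusted p = 0.0246) were lower with it. Both means rested mostly on a single array. The log2 ratios were −0.24, −2.08 and −0.12 for *elt-7* and −1.68, −0.05 and −0.17 for *gld-1*. Without the block their adjusted p was 0.41 and 0.44 in limma. The other markers were not called. The part of tissue content in the results on neuropeptide pathway genes was not tested. Among 11 dense-core vesicle genes none was called without the block, beside 3.53% of all genes in *ets-4(uz1)* larvae. With it 3 were (27.3%, beside 15.5% of all genes). *unc-31*, the CAPS protein of vesicle release, averaged higher in *ets-4(uz1)* larvae (mean 0.67, limma, adjusted p = 0.0389, or 0.265 without the block). Its arrays differed in sign, with log2 ratios of 0.84, 1.29 and −0.13. *rund-1* and *cccp-1*, which act in vesicle maturation, were lower (means −0.76 and −0.59). Their adjusted p was 0.0195 and 0.0437 in limma, or 0.0814 and 0.22 without the block.

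Of 105 neuropeptide receptor genes with a probe, 85 were tested and 1 was called, in *ets-4(uz1)* larvae (1.18%, beside 3.53% of all genes). The receptor gene *npr-17* had log2 ratios of 1.43, 0.93 and 1.07 in *ets-4(uz1)* larvae and 0.59, 0.25 and 0.14 in *ets-4(ok165)* larvae. The *ets-4(uz1)* values all lay above the *ets-4(ok165)* values, and its *ets-4(uz1)* mean was 1.14 ± 0.26 (SD, n = 3), 2.2-fold higher than wild type (limma, adjusted p = 0.0219). Its signal was not well above background in both channels on all 6 arrays. With normexp and loess its *ets-4(uz1)* mean was 0.30 (limma, adjusted p = 0.108), so the size of the rise depended on background correction and normalization, changed together. Without any 1 of the *ets-4(uz1)* arrays the adjusted p was 0.0853 to 0.128, and with no signal filter it was 0.0525. Its difference between the strains was 0.81 (SE 0.24, adjusted p = 0.506). With the block 6 receptor genes were called higher and 6 lower in *ets-4(uz1)* larvae (14.1% together, beside 15.5% of all genes), and none in *ets-4(ok165)* larvae or in the difference.

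Neprilysins are peptidases that break down released peptides. Of 25 genes with a probe 22 were tested and none was called, beside 3.53% of all genes in *ets-4(uz1)* larvae. With the block 1 was (4.55%, beside 15.5%), *nep-17*, lower in *ets-4(uz1)* larvae (mean −0.62, limma, adjusted p = 0.0315). Among the other peptide precursors, 5 of 6 had a probe and were tested. *pdf-1*, the pigment-dispersing factor precursor that promotes roaming, gave 0.86, 0.55 and 0.74 in *ets-4(uz1)* larvae and 0.37, 0.45 and 0.34 in *ets-4(ok165)* larvae. It was above 0 on all 6 arrays, and its *ets-4(uz1)* mean of 0.72 ± 0.16 (SD, n = 3), 1.64-fold higher than wild type, passed the test (limma, adjusted p = 0.0462). That call was lost without any 1 array of either strain (adjusted p = 0.0619 to 0.235) and with the scan date as a random block (0.0572). *pdf-2*, the other gene of this kind and once named *nlp-37*, was added after its values were seen. It had 0.39, 0.32 and 0.55 in *ets-4(uz1)* larvae and 0.41, 0.50 and 0.33 in *ets-4(ok165)* larvae, also above 0 on all 6 arrays, and did not pass the test (adjusted p = 0.172 and 0.578, limma).

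**Figure D4:**
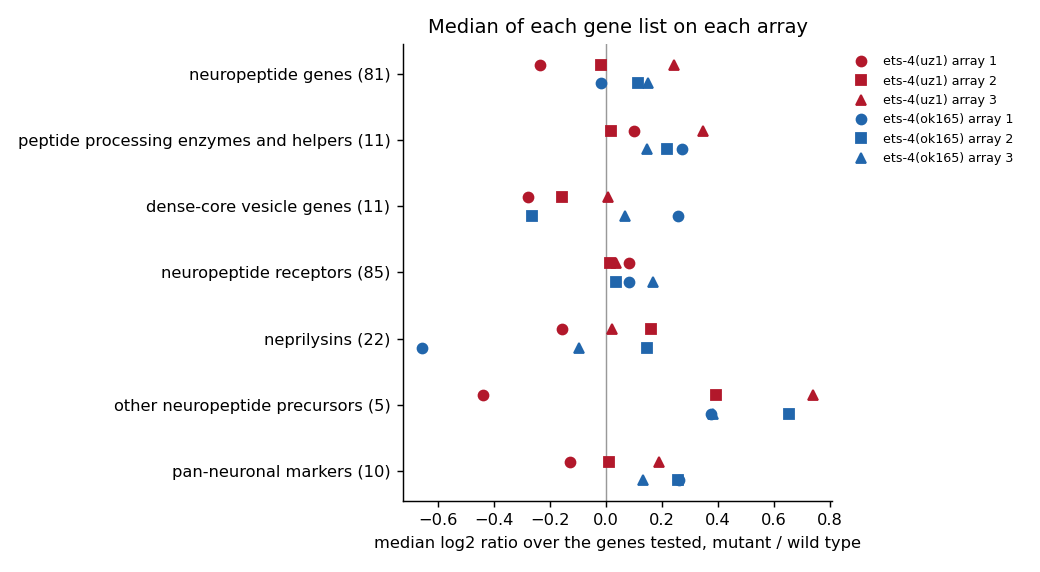
Median log2 ratio of mutant over wild type (horizontal axis) of each list of neuropeptide pathway genes and of the pan-neuronal markers on each array, with *ets-4(uz1)* arrays in red above *ets-4(ok165)* arrays in blue, array number by symbol and the number of genes tested in parentheses. The receptor medians stayed between 0.01 and 0.17, whereas the neprilysin medians ran from −0.66 to 0.16.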

How the data were processed

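Each sample was a two-color Agilent array of *C. elegans* larvae (mutant Cy5, wild type Cy3). The authors extracted the signals with Agilent Feature Extraction (8.5.1.1 on both first arrays, later versions on the rest). The deposited log10 ratios were background-subtracted and lowess-normalized within the array, and the deposited intensity values are spot and local background brightness and the dye-normalized signal. The log2 ratios of the deposited table of the whole series correlated at 0.997 to 1.00 with the log10 ratios, with a median of 0 per array.

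Here log10 ratios were converted to log2, controls and outlier-flagged spots were dropped, spots of a probe were averaged, and the brightest probe that was well above background in 1 or both channels on 3 or more of 6 arrays stood for its gene. Ratios of exactly 0 (9.67% to 20.9% of spots) were kept. limma (version 3.58.1, R 4.3.3) fitted a mean per strain over all 6 arrays, tested each mean against 0 and their difference, and adjusted p over 14768 genes by Benjamini-Hochberg, with a call under 0.05. The fit was tested on simulated data. The methods describe the 3 arrays per strain as independent repeats. Replicate numbers came from the labels. Deviations of same-numbered arrays correlated across 14589 genes (r = 0.513, 0.686 and 0.292), so the numbers were taken as pairs and the array number as a block. That fit is paired for the difference between the strains only. In its tests against 0 the error leaves out variation shared by same-numbered arrays. Where a channel stayed near background throughout a strain, the gene has a lower limit on its mean over the 3 arrays. It came from the detection limit of that channel, after Aquantile normalization, and is open to dye bias. The number of arrays limits the precision.

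Probes were named through sequence names (18124 of 18877 genes matched the RefSeq annotation, WBcel235). Named were neuropeptide genes called in any comparison with or without the block, the 8 with the largest means of 1 sign in each strain (in the difference, those without overlap), and genes of known roles. Genes and lists were chosen with earlier results of these data known. Alternatives were normexp (offset 50) with loess, the series table, other signal filters, zeros left out and the mean of all probes. Others were slide or scan date (the day an array was scanned) as a random block, Rank Products (100 permutations, probability of false prediction under 0.1) and leaving out each array.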

Additional observations from a re-analysis of the deposited data

How the results depend on the processing

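The count of neuropeptide genes called in *ets-4(uz1)* larvae (2) was 7 with the replicate block, whose error leaves out variation shared by same-numbered arrays. It was 0 with normexp and loess and 0 with no signal filter (88 genes tested). With both channels required on all 6 arrays it was 1 (72 tested), and on leaving out 1 array 0 to 2. With no signal filter the adjusted p was 0.0501 for *nlp-69* and 0.133 for *nlp-4*, and with the scan date as a random block *nlp-4* had 0.106. The count in *ets-4(ok165)* larvae was 0 under every alternative run. That in the difference was 0 under all but the replicate block and the scan date as a random block, each of which gave 1, *nlp-69*. The block changed no other call among the neuropeptide genes than those given. The median of the neuropeptide genes ran from −0.15 to 0.13 in *ets-4(uz1)* and from 0.05 to 0.14 in *ets-4(ok165)* larvae on leaving out 1 array.

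Of 54 log2 ratios of named genes, 2 changed sign under alternatives other than leaving out an array, both with the scan date as a random block. They were *flp-11* in *ets-4(uz1)* larvae (−0.0174) and *nlp-12* in *ets-4(ok165)* larvae (−0.0642). On leaving out 1 array, 13 changed sign, none of them called. In *ets-4(uz1)* larvae their ranges were −0.10 to 0.21 for *nlp-20*, −0.0002 to 0.25 for *nlp-71*, −0.18 to 0.16 for *flp-11*, −0.0787 to 0.13 for *flp-13*, −0.0112 to 0.36 for *nlp-12* and −0.48 to 0.0604 for *flp-17*. In *ets-4(ok165)* larvae they were −0.0671 to 0.63 for *nlp-4*, −0.20 to 0.13 for *flp-20*, −0.21 to 0.0457 for *nlp-8*, −0.59 to 0.0567 for *flp-21*, −0.12 to 0.68 for *flp-1*, −0.18 to 0.16 for *nlp-12* and −0.15 to 0.39 for *flp-7*. Causes of these changes were not tested. Signal near background limits the values of *nlp-61* and *nlp-90*, among others, and the 3 arrays per strain without a dye swap limit the values of every gene.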
